A study of Mus musculus with 6 samples.

Results

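A set of 8 subunits of the Polycomb repressive complexes was examined in hippocampal RNA-seq of p300-ifKO mice and their controls. The 8 genes were taken by name from the deposited table of 55471 genes: Ezh1, Ezh2, Eed, Suz12 and Jarid2 of Polycomb repressive complex 2 (PRC2), and Ring1, Rnf2 and Bmi1 of Polycomb repressive complex 1 (PRC1). Core below means these 8 genes only. Other PRC2 genes, Rbbp4 and Rbbp7 among them, are listed below as accessory. All 8 were detected in every library and all were among the 32773 genes tested. The rule uses names only, although earlier results of these data were known when the genes were proposed. The series held 6 libraries, 1 per mouse, from 3 p300-ifKO mice and 3 controls. All mice were C57BL/6 by the labels (C57BL/6J in the methods of the study), 3 to 6 months old, and were given tamoxifen by gavage 5 times (corn oil vehicle, 20 mg/mL). The p300-ifKO (inducible forebrain knockout) mice carried floxed Ep300, the gene for the acetyltransferase p300, with Camk2a_creERT2, a tamoxifen-activated Cre recombinase driven by Camk2a. Recombination leaves a truncated p300 protein. By the protocol, controls were littermates that lack creERT2, yet Camk2a_creERT2 appears in the description of every control library. The methods of the study also give controls as negative for creERT2, and the Esr1 counts given below were low in them. With controls lacking creERT2, effects of creERT2 itself and of p300 loss cannot be told apart here. Camk2a drives Cre in excitatory forebrain neurons, while the hippocampus also holds interneurons, glia and vessels that keep an intact Ep300. In such bulk tissue, fewer cells of a type and less RNA per cell cannot be told apart.

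Polycomb complexes keep developmental genes silent after the signals that first silenced them are gone. PRC2 methylates lysine 27 of histone H3 through EZH1 or EZH2, held in an active shape by SUZ12 and EED, and PRC1 attaches ubiquitin to histone H2A through RING1 or RNF2, also called RING1A and RING1B. The lysine that PRC2 methylates is one that p300 and its homologue CBP acetylate, and a single lysine cannot carry both marks. EZH2 is known as the catalytic subunit of dividing cells, and EZH1 as the one of cells that no longer divide, such as neurons.

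The upstream sequences of the 2 catalytic genes are shown because their transcript levels differed most between the paralogues described below. Each window holds the 250 bases before the RefSeq start of the gene on build GRCm38.p6, read 5′ to 3′ on the strand of the gene, and capitals mark CCAAT on either strand, so that ATTGG is its reverse complement. The window of Ezh1 lies at chr11:101226464-101226713 (minus strand) and that of Ezh2 at chr6:47595031-47595280 (minus strand).
Ezh1: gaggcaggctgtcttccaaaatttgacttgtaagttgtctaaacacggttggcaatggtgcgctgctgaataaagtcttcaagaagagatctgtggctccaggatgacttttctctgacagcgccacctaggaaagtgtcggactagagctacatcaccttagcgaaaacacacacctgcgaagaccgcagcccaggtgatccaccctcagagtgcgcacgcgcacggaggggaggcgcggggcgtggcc
Ezh2: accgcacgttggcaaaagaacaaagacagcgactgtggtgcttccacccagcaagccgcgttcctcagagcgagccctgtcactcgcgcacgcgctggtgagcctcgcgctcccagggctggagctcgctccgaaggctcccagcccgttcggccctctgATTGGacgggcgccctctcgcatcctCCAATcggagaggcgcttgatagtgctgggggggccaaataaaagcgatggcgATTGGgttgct
The Ezh1 window held 14 CpG dinucleotides at a GC content of 55.2% and no CCAAT. The Ezh2 window held 23 CpG at 63.6% and 3 CCAAT, which began 90, 64 and 11 bases before the start. In GENCODE, Ezh2 reaches further upstream, to chr6:47595341, so its window here lies within the GENCODE bounds of the gene. The 20 bases from the RefSeq start of Ezh2 (chr6:47595011-47595030, minus strand) follow, with a motif of the E2F family of cell cycle factors in capitals.
Ezh2 start: gcgTTTGGCGCtcggtccgg
The E2F motif was searched as TTTGGCGC or TTTCGCGC on both strands, from 250 bases before to 50 bases after the start. It occurred in 1 of 9 windows of the 8 genes (Jarid2 has 2 starts), namely in Ezh2, and in 267 of 32851 promoters in all (0.813%). CCAAT occurred in 5 of 9 windows, belonging to Eed, Ezh2, Jarid2 and Suz12, against 37.4% of all promoters. The cAMP response element TGACGTCA, which is bound by the CBP and p300 partner CREB, occurred in 0 of 9 windows and in 1.79% of all promoters. No binding was measured in these libraries, so the matches describe letters and not sites in use.

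Library totals lay between 23151568 and 28433823 counts. Ep300 had 1545, 1474 and 2334 normalized counts (counts divided by the DESeq2 size factor) in controls 1 to 3 and 478, 1350 and 912 in p300-ifKOs 1 to 3. All p300-ifKO values lay below all control values, but the DESeq2 log2 fold change of -0.97 (SE 0.33, unadjusted p = 0.00369) did not pass, at an adjusted p of 0.991. It was -0.66 without p300-ifKO 1. Esr1, whose ligand binding domain is part of creERT2, had 102 ± 12.5 normalized counts in controls and 3167 ± 937 in p300-ifKOs (SD, n = 3 each). Crebbp, the gene for CBP, had a log2 fold change of -0.05 (SE 0.11), and 0.11 with length and GC offsets. Of 32773 genes, 2 passed an adjusted p of 0.05, namely Esr1 and Arsi (0.0061%), and 432 had an unadjusted p under 0.05 (1.32%). Esr1 and Arsi both rose in p300-ifKOs. The study attributes both rises to the Camk2a_creERT2 transgene, whose inserted DNA includes Arsi. Summed levels of markers overlapped between genotypes for 8 of 9 cell type lists. The exception was microglia, whose levels in TPM (counts divided by exonic length and scaled to the same total in each library) summed to 498 to 543 in controls and 558 to 617 in p300-ifKOs, with 6 of 8 markers higher, 0 called and 2 with an unadjusted p under 0.05. The part of microglia in the Polycomb values was not tested. p300-ifKO 1, the library lowest in Ep300 and highest in Esr1, stood apart: across 17054 genes its log ratio to the mean of all libraries had a Spearman correlation of -0.51 with exonic length and 0.33 with GC content, against -0.28 to 0.42 and -0.24 to 0.06 in the other 5 libraries.

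Levels were compared between genes as TPM, since counts alone depend on the length of a gene. Ezh1 stood highest of the 8 genes at 57.9 ± 4.26 TPM and Ezh2 lowest at 4.14 ± 0.455 TPM (mean ± SD, n = 6). Between them lay, in falling order, Ring1 at 52.9 ± 2.59, Bmi1 at 51.8 ± 11.2, Rnf2 at 43.0 ± 8.07, Suz12 at 34.7 ± 8.38, Eed at 16.8 ± 0.819 and Jarid2 at 14.7 ± 2.84 TPM. Ezh1 thus ranked at percentile 90.3 of all genes tested and Ezh2 at percentile 61.1. The scaffold subunits of PRC2, Suz12 and Eed, were both below Ezh1 and above Ezh2 in all libraries.

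Not every step in that order was larger than its spread. Ring1 and Bmi1 kept their order in 3 of 6 libraries, with a log2 difference of 0.06 ± 0.42. Eed and Jarid2 kept theirs in 4 of 6 (0.22 ± 0.34), and Ezh1 and Ring1 in 5 of 6 (0.13 ± 0.17). These neighbours did not differ beyond their spread. Ezh1 was below Ring1 in p300-ifKO 1 (50.4 against 57.3 TPM) and below Bmi1 in p300-ifKO 2 (58.6 against 65.6 TPM). The other steps held in 6 of 6 libraries, with log2 differences of 0.26 ± 0.06 from Bmi1 to Rnf2, 0.33 ± 0.14 from Rnf2 to Suz12, 0.997 ± 0.46 from Suz12 to Eed and 1.82 ± 0.28 from Jarid2 to Ezh2.

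**Figure D1:**
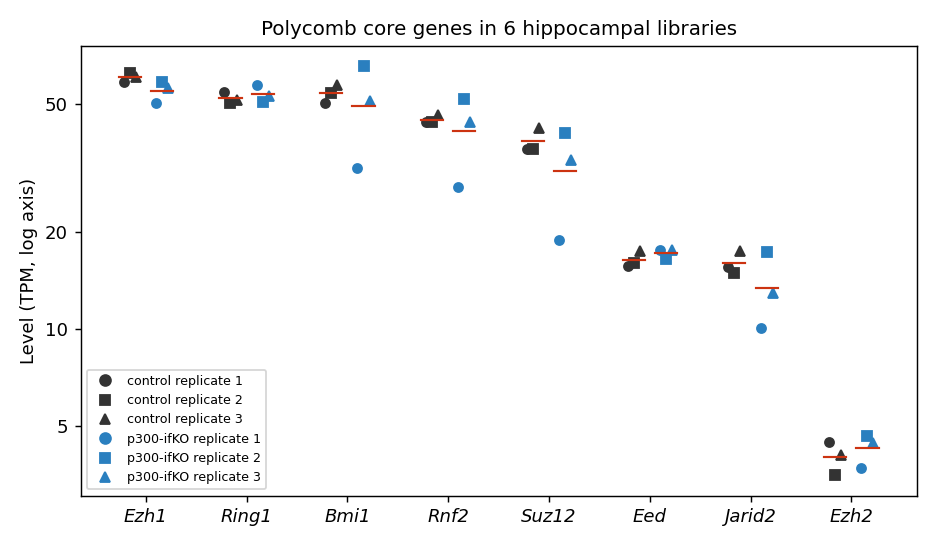
Level in TPM (log axis) of the 8 Polycomb core genes in the 6 libraries, with black symbols for controls, blue symbols for p300-ifKOs and red lines for the mean of each genotype. Ezh1 has the highest mean and Ezh2 the lowest, and the blue circle of p300-ifKO 1 lies below the other libraries for Ezh1, Bmi1, Rnf2, Suz12 and Jarid2.

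The catalytic pair of PRC2 was strongly unequal in every mouse. Ezh1 was at 58.8, 62.4 and 60.9 TPM in controls and 50.4, 58.6 and 56.2 TPM in p300-ifKOs, and Ezh2 at 4.45, 3.51 and 4.06 TPM in controls and 3.70, 4.65 and 4.44 TPM in p300-ifKOs. No value of one came near the other. The ratio of Ezh1 to Ezh2 within a library was 13.2, 17.8 and 15.0 in controls and 13.6, 12.6 and 12.7 in p300-ifKOs. Its mean on the log2 scale was 3.81 ± 0.19 (SD, n = 6), a 14.0-fold excess of Ezh1. The exact two-sided sign-flip permutation test gave p = 0.03125, the smallest that 6 libraries allow, and 0.046875 after Benjamini-Hochberg adjustment over the 3 paralogue pairs. Divided by the longest coding transcript in place of all exonic bases, the log2 ratio was 3.37 with the same p.

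The other pairs were closer to balance. Ring1 and Rnf2 encode the alternative ubiquitin ligases of PRC1. Their ratio was 1.24, 1.15 and 1.11 in controls and 2.07, 0.982 and 1.202 in p300-ifKOs. The mean log2 ratio of 0.33 ± 0.37 had an exact sign-flip p of 0.0625 (adjusted 0.0625, n = 6), so a difference in level was not shown. It was 0.18 without p300-ifKO 1, the library with the highest ratio, and 0.63 with an adjusted p of 0.046875 when the longest coding transcript was used. Bmi1 and Pcgf2 encode alternative PCGF proteins that pair with the ligase. Bmi1 was 1.52, 1.95 and 1.97 times Pcgf2 in controls and 1.03, 2.27 and 1.61 times in p300-ifKOs. The mean log2 ratio was 0.74 ± 0.40 (exact sign-flip p = 0.03125, adjusted 0.046875, n = 6), and 0.38 with an adjusted p of 0.09375 by the longest coding transcript. Of the 50-base stretches of Bmi1, 16.7% also occur in the pseudogene copies Gm5946 and AC114652.1, and the log2 ratio was 1.07 when the same counts of both genes were divided by the number of stretches found in no other gene (3262 for Bmi1 and 3631 for Pcgf2). Reads were not recounted.

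None of these balances was shown to differ between genotypes. The Ezh1 to Ezh2 ratio was 15.2 in controls and 13.0 in p300-ifKOs, a log2 difference of -0.23 (exact permutation p = 0.2, adjusted 0.6, n = 3 each). It was -0.12 without control 2 and -0.33 without control 1. For Ring1 over Rnf2 the difference was 0.21 (exact permutation p = 0.8, n = 3 each), and -0.10 without p300-ifKO 1. For Bmi1 over Pcgf2 it was -0.21 (exact permutation p = 0.7, n = 3 each), and 0.089 without p300-ifKO 1. Both differences in the PRC1 pairs thus changed sign with that library. With 3 against 3 mice the smallest p such a test can give is 0.1.

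**Figure D2:**
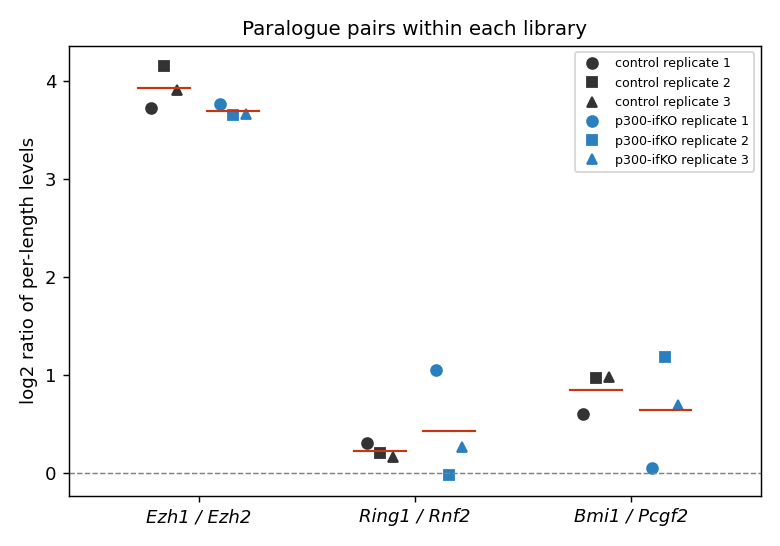
Log2 ratio of TPM within each library for 3 paralogue pairs, with black symbols for controls, blue symbols for p300-ifKOs, red lines for the genotype means and a dashed line at equal levels. All 6 libraries sit between 3.66 and 4.15 for Ezh1 over Ezh2, while the other pairs reach at most 1.18 and p300-ifKO 1 departs from the rest in both.

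No Polycomb core gene passed the test between genotypes. Of the 8 genes, 0 had an adjusted p under 0.05 in DESeq2, where the background over all genes was 0.0061%. None was called by edgeR or limma-voom (0.0117% of the 17131 genes kept by the count filter in each). The number with an unadjusted p under 0.05 was also 0, in DESeq2, edgeR and limma-voom. Over all genes in each fit the shares were 1.32% of 32773, 2.3% of 17131 and 2.15% of 17131. The median log2 fold change was -0.09, against -0.01 over the 17070 genes with a mean normalized count of at least 10, with 3 genes above and 5 below no change. It was -0.15 without p300-ifKO 2 and 0.01 without p300-ifKO 1. All 8 adjusted p-values were 0.991.

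Ezh1 had 2853, 3117 and 2886 normalized counts in controls and 2783, 2755 and 2791 in p300-ifKOs. The p300-ifKO values lay close together just under the lowest control, and Ezh1 was the only one of the 8 genes whose genotypes did not overlap. The same happened, in that direction, for 3.42% of all genes tested and for 3.15% of those with a mean normalized count of at least 50. In either direction it happened for 6.64% of all genes tested. The log2 fold change was -0.09 (SE 0.10, 95% interval -0.29 to 0.11, unadjusted p = 0.392), -0.045 without control 2 and 0.0027 with length and GC offsets. After those offsets the genotypes of Ezh1 overlapped, at 2813, 3134 and 2686 in controls and 3151, 2622 and 2878 in p300-ifKOs, with p300-ifKO 1 the highest library. Ezh1 lies at chr11:101191115-101226463 on the minus strand of GRCm38.

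Ezh2 (chr6:47530139-47595341, minus strand) had 194, 158 and 172 normalized counts in controls and 184, 196 and 198 in p300-ifKOs. The genotypes overlapped, with control 1 above p300-ifKO 1. p300-ifKOs exceeded controls by 0.14 on the log2 scale (SE 0.18, 95% interval -0.21 to 0.49, unadjusted p = 0.435). It was 0.074 without control 2, the lowest library, 0.22 without control 1, the highest control, and 0.27 with length and GC offsets. The raw counts were 150 to 222 per library, the fewest of the 8 genes, and 174 exonic bases overlap Gm26625 on the opposite strand.

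Eed, the subunit that binds methylated H3K27 (chr7:89954654-89980983, minus strand), had 394, 414 and 426 normalized counts in controls and 500, 399 and 449 in p300-ifKOs. p300-ifKO 1 and 3 lay above all controls, and p300-ifKO 2 among them. The log2 fold change was 0.13 (SE 0.15, unadjusted p = 0.404), 0.043 without p300-ifKO 1, 0.21 without p300-ifKO 2 and 0.026 with 1 surrogate variable. Suz12, the scaffold of PRC2 (chr11:79993106-80034123, plus strand), had 1172, 1208 and 1330 normalized counts in controls and 693, 1271 and 1103 in p300-ifKOs. p300-ifKO 1 lay far below the controls and p300-ifKO 3 just below them, with p300-ifKO 2 among them. Its log2 fold change of -0.27 (SE 0.22, 95% interval -0.71 to 0.16, unadjusted p = 0.220) was the lowest of the 8 genes in this fit. It became -0.060 without p300-ifKO 1, where Jarid2 (-0.099) and Ezh1 (-0.091) were lower, and -0.46 without p300-ifKO 2. With 1 surrogate variable it was -0.0078 and Ezh1 was the lowest, at -0.099.

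Jarid2, which recruits PRC2 to chromatin (chr13:44729474-44921643, plus strand), had 988, 978 and 1085 normalized counts in controls and 727, 1062 and 838 in p300-ifKOs. p300-ifKO 1 and 3 lay below all controls and p300-ifKO 2 within them. The log2 fold change was -0.21 (SE 0.17, 95% interval -0.56 to 0.13, unadjusted p = 0.217). It was -0.078 with length and GC offsets and -0.040 with 1 surrogate variable. It was -0.099 without p300-ifKO 1 and -0.37 without p300-ifKO 2, the latter with an adjusted p of 0.0805. That was the smallest adjusted p of any of the 8 genes under any alternative, in a fit that called 7.9% of its 11726 genes.

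The direction of all 3 PRC1 genes depended on 1 library. Ring1 (chr17:34020792-34024680, minus strand) had 1154, 1101 and 1064 normalized counts in controls and 1380, 1041 and 1144 in p300-ifKOs, with a log2 difference of 0.10 (SE 0.15, unadjusted p = 0.497 in DESeq2). Its p300-ifKOs lay above, below and within the controls. Rnf2 (chr1:151458004-151500955, minus strand) had 1187, 1217 and 1215 in controls and 848, 1349 and 1211 in p300-ifKOs, with -0.09 (SE 0.19, unadjusted p = 0.651). The controls of Rnf2 spanned a narrow range, and p300-ifKOs lay below, above and within it. Bmi1 (chr2:18677018-18686629, plus strand) had 1312, 1444 and 1451 in controls and 937, 1645 and 1358 in p300-ifKOs, with -0.09 (SE 0.21, unadjusted p = 0.655). Here too p300-ifKO 1 lay below the controls and p300-ifKO 2 above them. Without p300-ifKO 1 all 3 values changed sign, to -0.020 for Ring1, 0.085 for Rnf2 and 0.098 for Bmi1. Opposite-strand genes overlap Eed (E230029C05Rik), Suz12 (Gm26563) and Rnf2 (Trmt1l) over 158 to 261 exonic bases, and a strand setting for the counting is not given in the sources used here.

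**Figure D3:**
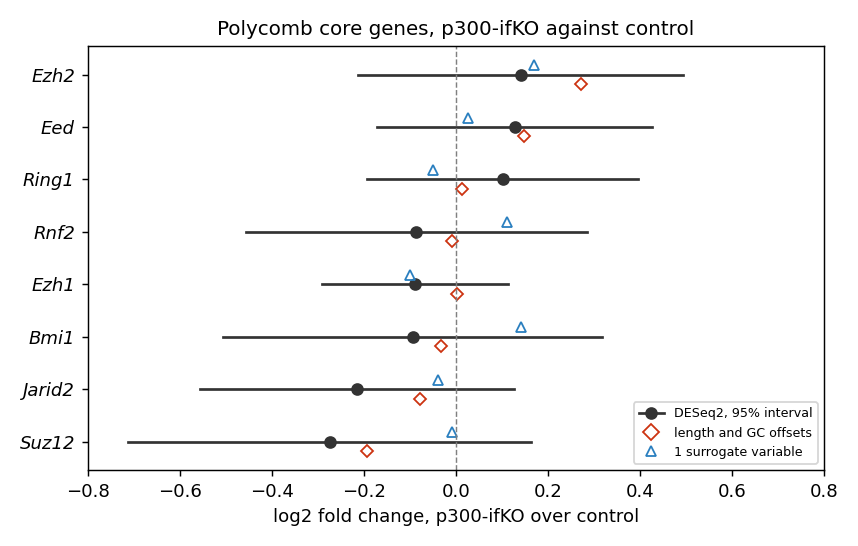
Log2 fold change of each Polycomb core gene in p300-ifKO over control, with black points and 95% intervals from DESeq2, red diamonds with length and GC offsets and blue triangles with 1 surrogate variable. Every black interval spans 0, from Suz12 at -0.27 to Ezh2 at 0.14, and the triangles of Ring1, Rnf2 and Bmi1 lie on the other side of 0 from their black points.

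The library p300-ifKO 1 departed from the controls in opposite directions among the 8 genes. Relative to the control mean it held 56.0% of Suz12, 66.8% of Bmi1, 70.3% of Rnf2 and 71.5% of Jarid2, but 122% of Eed and 125% of Ring1. Ezh1 at 94.3% and Ezh2 at 105% were close to the controls. In normalized counts it was the lowest library for 4 of the 8 genes and the highest for 2. Over all genes with a mean normalized count of at least 10 it was lowest for 37.8% and highest for 37.0%, so an extreme position in this library was common. The 4 low genes had exonic lengths of 3974 to 9715 bases and GC contents of 39.5% to 48.8%, against 3243 bases and 56.9% for Ring1 and 3828 bases and 47.8% for Eed. Ezh1 (7440 bases, 51.2%) and Ezh2 (6678 bases, 44.4%) had lengths within the range of the 4 low genes, and Ezh2 a GC content within theirs. Once smooth length and GC trends were removed in each library, p300-ifKO 1 held 68.1% of Suz12, 78.4% of Bmi1, 85.1% of Rnf2, 91.8% of Jarid2, 109% of Ring1 and 125% of Eed, while Ezh1 and Ezh2 moved up to 109% and 132%. In that fit the log2 fold changes ran from -0.19 (SE 0.16) for Suz12 to 0.27 (SE 0.18) for Ezh2. Called were 0 of 8 genes (0.0117% of the 17053 genes in that fit).

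**Figure D4:**
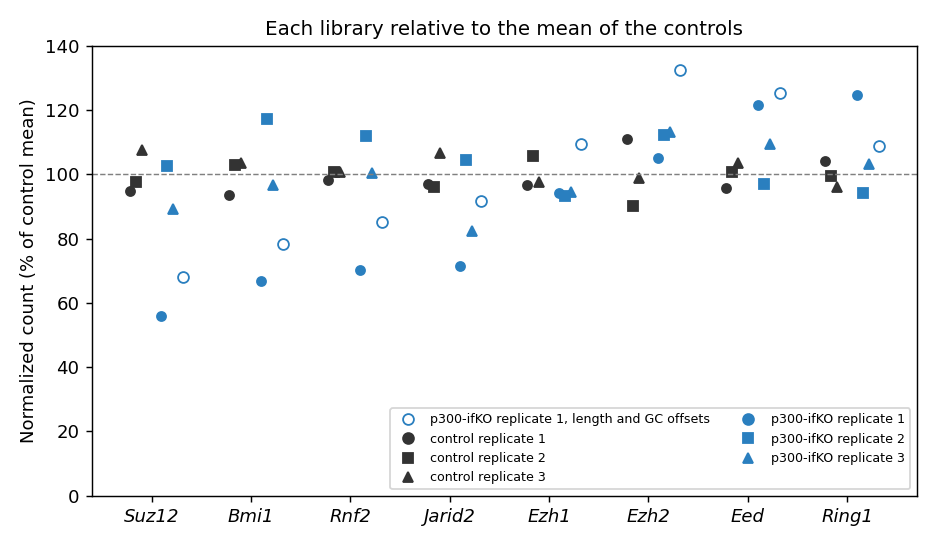
Normalized count of each Polycomb core gene as a percentage of the control mean, with black symbols for controls, blue filled symbols for p300-ifKOs and open circles for p300-ifKO 1 after length and GC offsets. The filled circle of p300-ifKO 1 runs from 56.0% for Suz12 to 125% for Ring1, while controls stay between 90.2% and 111%.

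The genes that work with the core subunits were taken as lists of the pathway. Of 10 PRC2 accessory genes, 9 had a mean normalized count of at least 10, with 4 above and 5 below no change, a median log2 fold change of -0.03 and 0 called, also at an unadjusted p under 0.05 in DESeq2, edgeR and limma-voom. The median ranged from -0.15 without p300-ifKO 2 to 0.079 without control 1. The histone-binding chaperones Rbbp7 and Rbbp4, which PRC2 shares with other complexes, stood at 184 ± 6.19 and 60.6 ± 2.33 TPM (SD, n = 6). Rbbp7 was above each of the 8 listed genes in all libraries, whereas Rbbp4 was below Ezh1 in controls 2 and 3. Epop, which links PRC2 to elongin, followed at 40.8 ± 6.85 TPM and had the highest log2 fold change of the list (0.32, SE 0.22), which was 0.082 without p300-ifKO 1. Lcor had the lowest, at -1.18 (SE 0.70, unadjusted p = 0.0910). Its normalized counts were 29.8, 27.3 and 190 in controls and 18.3, 57.4 and 32.8 in p300-ifKOs, so that control 3 alone was high. Without control 3 the log2 fold change of Lcor was 0.35, in the other direction.

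All 24 PRC1 partner genes had a mean normalized count of at least 10. There were 12 above and 12 below no change, with a median log2 fold change of 0.0046 (-0.038 to 0.016 with 1 library left out) and 0 called, also at an unadjusted p under 0.05 by the same 3 tools. Cbx6, a chromodomain protein that reads methylated H3K27, was at 156 ± 8.30 TPM and Yaf2, a subunit of variant PRC1, at 150 ± 7.65 TPM, with Phc2, a polyhomeotic protein, next at 47.4 ± 3.95 TPM (SD, n = 6). Pcgf2, the paralogue of Bmi1, was at 30.3 ± 2.09 TPM, with a log2 fold change of 0.08 (SE 0.15). Log2 fold changes ran from -0.45 (SE 0.34) for Rybp, the paralogue of Yaf2, to 0.27 (SE 0.24) for Pcgf1. Rybp was at 308, 259.5 and 350 normalized counts in controls and 117, 346 and 208 in p300-ifKOs, and Pcgf1 at 293, 308 and 256 in controls and 462, 257 and 314 in p300-ifKOs. The extreme p300-ifKO value of both was again that of p300-ifKO 1, without which Rybp was at -0.14 and Pcgf1 at -0.0020 on the log2 fold scale. Without p300-ifKO 2, 3 of the 24 passed an adjusted p of 0.05 in DESeq2, against 7.9% of the 11726 genes with an adjusted p in that fit. These were Rybp (-0.91), Auts2 (-0.48), a partner of PRC1 in neurons, and Kdm2b (-0.82), which recruits variant PRC1 to CpG islands.

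Genes that take the Polycomb marks away numbered 7, all with a mean of at least 10. Of these, 6 were below and 1 above no change, with a median log2 fold change of -0.20 and 0 called, also at an unadjusted p under 0.05 by the same 3 tools. The median was -0.05 without p300-ifKO 1, which was the lowest library for 6 of the 7, and -0.39 without p300-ifKO 2. With 1 surrogate variable it was 0.03. Bap1, the deubiquitinase of histone H2A, was the most abundant at 132 ± 4.68 TPM and was at 0.052 (SE 0.12) on the log2 fold scale, and at -0.0019 without control 3. Its cofactor Asxl1 was at 28.5 ± 6.50 TPM, and Kdm6b, a demethylase of H3K27, at 19.5 ± 4.63 TPM. Asxl3 had the lowest log2 fold change (-0.31, SE 0.23), which was -0.073 without control 3.

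**Figure D5:**
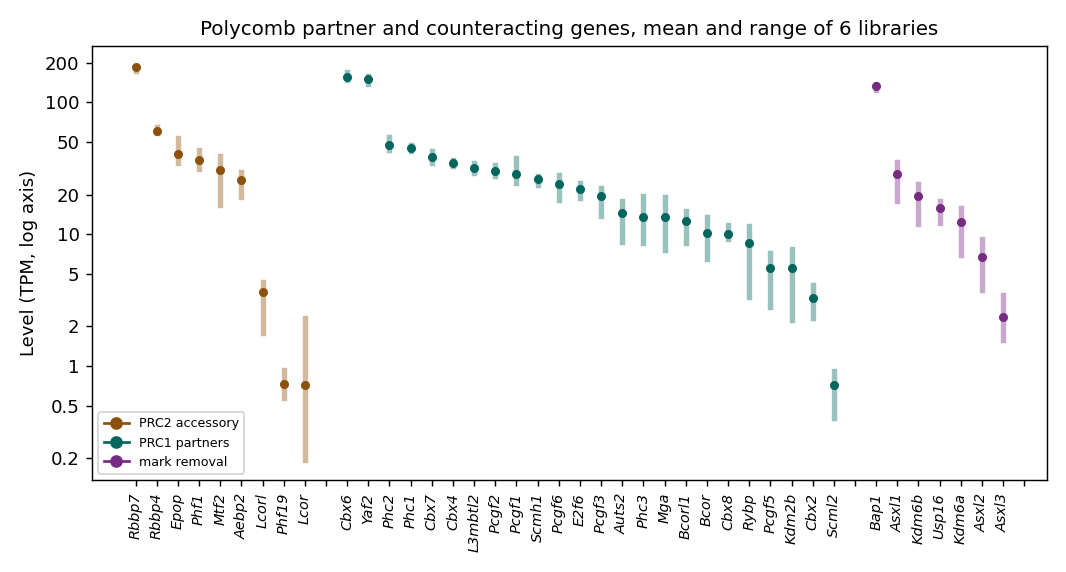
Level in TPM (log axis) of the PRC2 accessory genes, the PRC1 partners and the genes that remove the marks, for genes with a mean normalized count of at least 10, with points for the mean and bars for the lowest and highest of 6 libraries. Rbbp7 at 184, Cbx6 at 156, Yaf2 at 150 and Bap1 at 132 TPM lie above the highest of the 8 listed genes, Ezh1 at 57.9 TPM.

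Genes that Polycomb complexes keep silent in most adult tissues were near the detection limit in both genotypes. Of 39 Hox genes, 28 had no count in any library, which allows up to 0.0199 CPM over the 6 libraries (3 counts of 150662622, for counting error only). The other 11 had at most 20 counts in all, and none reached a mean normalized count of 10. Summed over the Hox genes, controls had 10, 11 and 5 counts and p300-ifKOs 5, 9 and 8. The genotypes overlapped, and control 3 and p300-ifKO 1 shared the lowest total of 5. Of the 11 Hox genes with a count, 0 were called by DESeq2, also at an unadjusted p under 0.05. With so few counts a call was hardly possible. The other 28 had no p, and edgeR and limma-voom left out all 39 by their filter on low counts.

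Among 22 other classic targets, 8 had no count and so no p, and edgeR and limma-voom also left out targets with few counts. None of those tested was called, also at an unadjusted p under 0.05 in DESeq2, edgeR or limma-voom. A mean normalized count of 10 was reached by 3 targets. These were Sox17, a gene of vascular endothelium, at 4.65 ± 0.419 TPM with a log2 fold change of -0.07 (SE 0.19), Nkx2-2, a gene of the oligodendrocyte lineage, at 3.63 ± 0.577 TPM with 0.16 (SE 0.28), and the cell cycle inhibitor gene Cdkn2b at 1.42 ± 0.534 TPM with 0.68 (SE 0.58). The median of the 3 was 0.16, and 0.02 without control 2. Cdkn2b had 8.95, 10.5 and 11.2 normalized counts in controls and 19.3, 8.84 and 21.2 in p300-ifKOs. p300-ifKO 2 lay below every control and the other 2 above. The 95% interval of its log2 fold change ran from -0.46 to 1.82, and a difference was not shown.

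Genes with the library pattern most like Ezh1 and Ezh2 were sought among 13614 genes with a mean normalized count of at least 50. Likeness was the mean absolute difference of centred log2 values over the 6 libraries. Nearest to Ezh1 were Mpc1, a subunit of the mitochondrial pyruvate carrier (0.014), Mpped2 (0.021) and Fbxo28 (0.022). Nearest to Ezh2 were the transcription factor gene Klf15 (0.024), Zfp874a (0.030) and Tmem41b (0.034). The values describe 6 libraries that differ in length trend and genotype, and they carry no test.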

How the data were processed

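RNA was taken from the hippocampus of 6 individual mice, and groups and replicate numbers came from the sample titles. The authors trimmed single-end 50 bp reads (Trim Galore 0.6.4), aligned them to GRCm38 with STAR 2.6.1, removed reads of low mapping quality, used Rsubread to assign the rest to Ensembl exons, and deposited raw counts per gene with the exonic length. Per-sample columns left unused numbered 0. The quality limit lowers genes with near-identical copies. Symbols, coordinates and GC content came from GENCODE M21 (99.57% of identifiers matched), and promoter sequences from RefSeq.

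Genotypes were compared with a two-sided Wald test in DESeq2 (version 1.42.0, R 4.3.3; the submitters' processing notes name 1.30.1) with default filters, no covariate and Benjamini-Hochberg adjustment over 32773 genes at 0.05. p-values measure the spread between these mice. TPM used the deposited lengths. Paralogue ratios were tested by exact permutation. The DESeq2 comparison was tested on simulated counts in which 200 genes were changed. The changed genes came only from well-counted genes, and the draws held no length or GC trend. It recovered 93% of them at 2-fold, 37% at 1.5-fold and 0% at 1.2-fold. False calls numbered 46, 42 and 8, each time a larger share of the calls than 0.05. Small changes can thus go uncalled in this design. In the real libraries Ep300, at a log2 fold change of -0.97, also went uncalled. Alternatives were edgeR (4.0.16), limma-voom (3.58.1), TMM factors, a minimum of 10 counts in 3 libraries, no independent filtering, a replicate block, 1 surrogate variable from sva (3.50.0), smooth length and GC offsets from mgcv (1.9.3), other gene lengths and leaving out each library.

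The 8 members, the lists and the tests were chosen with earlier results of these data known. Genes named were the members, Ep300, Esr1, Crebbp and Pcgf2, of each list every gene with an unadjusted p under 0.05, those with the highest and lowest log2 fold change among genes with a mean normalized count of at least 10 and the 3 with the highest TPM, and for Ezh1 and Ezh2 the 3 most alike. Arsi was named because it passed the test, and Igkc, Igha, Auts2, Kdm2b and Cdkn2a after their values were seen.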

Additional observations from a re-analysis of the deposited data

How the results depend on the processing

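Over 14 alternatives, the 8 Polycomb core genes gave 112 log2 fold changes, of which 0 were called and 105 kept the direction. The fit with no independent filtering alters only adjusted p-values, so its 8 fold changes could not reverse. The 7 that reversed were Ezh1 with length and GC offsets (0.0027), Ring1, Rnf2 and Bmi1 with 1 surrogate variable (-0.050, 0.11 and 0.14) and the same 3 without p300-ifKO replicate 1 (-0.020, 0.085 and 0.098). Leaving out 1 library, Ring1 ranged from -0.020 to 0.19, Rnf2 from -0.22 to 0.085 and Bmi1 from -0.29 to 0.098. Crebbp reversed with length and GC offsets (0.11). Ep300 passed the test with 1 surrogate variable (-0.49, DESeq2 adjusted p = 0.00322) and without p300-ifKO replicate 2 (-1.36, DESeq2 adjusted p = 0.000375). The cause of these changes was not tested. Leaving out 1 library gave between 2 and 926 genes called, the latter without p300-ifKO replicate 2, and a median of the PRC2 accessory genes between -0.15 and 0.079.

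With 5 libraries the sign-flip test cannot go below 0.0625, so neither called paralogue ratio passed, at log2 ratios of 3.74 to 3.84 for Ezh1 over Ezh2 and 0.66 to 0.88 for Bmi1 over Pcgf2. By the longest coding transcript, Ring1 over Rnf2 passed (0.63) and Bmi1 over Pcgf2 did not (0.38). The genotype difference ranged with 1 library left out from -0.33 to -0.12 for Ezh1 over Ezh2, from -0.10 to 0.43 for Ring1 over Rnf2 and from -0.48 to 0.089 for Bmi1 over Pcgf2, with the sign of the last 2 changed without p300-ifKO replicate 1.

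Same-numbered control and p300-ifKO libraries had correlations of their deviations of 0.27, -0.28 and 0.13, and the main fit did not pair mice. The original library names also carry matching numbers in both genotypes, and controls were littermates, but pairing is not stated in the sources used here. With 3 mice a genotype these correlations cannot exclude it. With the replicate block 4 genes were called (Esr1, Arsi, Igkc and Igha), 0 of them a Polycomb core gene. With 3 mice a genotype, the 95% interval of every core gene includes no change. On the log2 scale these intervals reached as low as -0.71 for Suz12 and as high as 0.49 for Ezh2.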

Other observations

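Cdkn2a, a cell cycle inhibitor gene known as a Polycomb target and chosen here after its values were seen, had 4, 3 and 3 raw counts in controls and 1, 1 and 1 in p300-ifKOs. The genotypes did not overlap, as in 3.42% of all genes tested in that direction, but the unadjusted p was 0.179 in DESeq2 and the gene was not called. Auts2, a partner of PRC1 in neurons, was the PRC1 partner with the smallest unadjusted p (0.0671 in DESeq2) and was likewise chosen after its values were seen. It had 2397, 2355 and 2609 normalized counts in controls and 1482, 2315 and 2034 in p300-ifKOs, a log2 fold change of -0.34 (SE 0.18) that was -0.18 without p300-ifKO 1, and its exonic length of 22890 bases was the greatest of that list.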
